A study of Mus musculus with 8 samples.

Results

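The neurotrophins and their receptors were examined in hippocampal RNA of female mice as a group of 6 genes, chosen by gene symbol among the 29442 genes of the count table. They were the ligands Bdnf and Ntf3, the Trk receptors Ntrk2 and Ntrk3, the p75 receptor Ngfr and sortilin, Sort1. All 6 were counted in each of the 8 libraries. The mice were female C57BL/6 J animals of 6 to 8 weeks that received daily subcutaneous injections for 21 days, 4 of DHEA (30 mg/kg/day), an adrenal androgen precursor, and 4 of the vehicle sesame oil. All of them had passed through forced swim, tail suspension and open field tests before the tissue, named ventral hippocampus in the study's methods, was collected, and poly(A) RNA-seq libraries were made from hippocampal tissue. The study's methods give 4 mice per group, whereas the series' own design note speaks of 6 hippocampus samples, and 8 libraries are labelled. Gene counts totalled 35748416 to 38038361 per DHEA library and 31483772 to 35418297 per sesame oil library. Directions follow the deposited treatment labels, whereas the study's own list of differentially expressed genes carries the opposite sign. The study reports that qRT-PCR of selected genes in additional hippocampal samples matched its own directions. Which sign is right cannot be told from the sources used here. The groups are named by their labels, and every direction below would reverse if the labels were exchanged. The libraries did not spread evenly. On the first principal component of the 16813 genes whose mean count reached 10, which held 33.4% of the variance, DHEA replicate 1 lay at 21.8 and DHEA replicate 2 at 35.6, while the other 6 libraries lay between -12.7 and -3.62. Fold changes and list counts without these 2 libraries are therefore given for the 6 genes and the lists.

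Neurotrophins are secreted proteins that are made as longer precursors and cleaved to the mature ligand. Mature BDNF acts through the receptor tyrosine kinase TrkB, encoded by Ntrk2, and NT-3 through TrkC, encoded by Ntrk3, while the uncleaved precursors bind p75 together with sortilin. In the hippocampus BDNF is made mainly by excitatory neurons and is known for its role in synaptic plasticity, NT-3 is best known from the granule cells of the dentate gyrus and from CA2, and a truncated form of TrkB that lacks the kinase is abundant in astrocytes. DHEA has been described to bind p75. Markers of the hippocampus were present. The list of 10 neuron markers summed to 10709 to 11548 CPM (counts scaled to the TMM-normalized library size) in the 8 libraries, with Camk2a, the kinase of the postsynaptic density, the most abundant at a mean of 3808 CPM. Markers of the dentate gyrus, led by Prox1 at 130.6 CPM, and of CA2, led by Pcp4 at 118.7 CPM, were also present. The neuron list summed to 11121 ± 406 CPM (SD, n = 4) with DHEA and 11026 ± 271 CPM (SD, n = 4) with sesame oil, and the groups overlapped.

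The level of the 6 genes relative to their length fell in one order in all 8 libraries. FPKM, the authors' count scaled to gene length and library size, had a mean of 98.3 ± 4.32 (SD, n = 8) for Sort1, 24.5 ± 1.04 (SD, n = 8) for Ntrk2 and 12.5 ± 1.10 (SD, n = 8) for Ntrk3. The ligands were lower, with 6.87 ± 0.771 FPKM (SD, n = 8) for Bdnf and 2.50 ± 0.364 FPKM (SD, n = 8) for Ntf3, and Ngfr was the lowest at 0.387 ± 0.170 FPKM (SD, n = 8). Sort1 thus stood above 98.4% of the 27612 genes tested by its mean FPKM, and Ngfr above 48.0% of them. Each gene exceeded the next in the order in 8 of 8 libraries, with the smallest ratio, 1.32, between Ntrk3 and Bdnf in one library. The distance between the receptors depends on the length chosen. The deposited FPKM imply a length of 29517 bases for Ntrk2, whereas its longest coding transcript in GENCODE vM21 has 8744 bases. With the latter length Ntrk2 came to 82.7 ± 3.51 FPKM (SD, n = 8), beside 103.1 ± 4.53 FPKM (SD, n = 8) for Sort1 by the same rule, and the order of the 6 genes stayed as it was. Reads of the full-length and truncated forms of TrkB and TrkC are pooled in these counts, as 10 transcripts of Ntrk2 and 20 of Ntrk3 are annotated in GENCODE vM21.

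**Figure D1:**
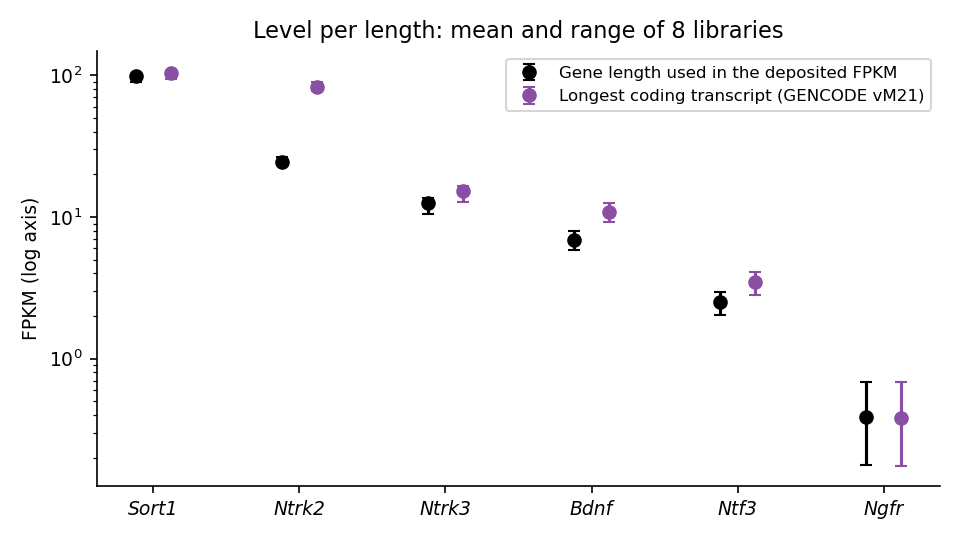
Level of each gene per length, as mean and range of the 8 libraries, in FPKM on a log axis. Black points use the length behind the deposited FPKM and purple points the longest coding transcript. Ntrk2 moves from 24.5 to 82.7 FPKM with the second length, and the order of the 6 genes is the same with both.

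None of the 6 genes passed the adjusted test. After Benjamini-Hochberg adjustment over the 27612 genes tested with edgeR (quasi-likelihood), 0 of the 6 were called at 0.05, as were 0 of all genes (0%). At an unadjusted p under 0.05, 1 of the 6 passed (Bdnf), beside 9.31% of all genes tested. It was 15.7% among the 12780 genes whose mean count reached 100. The number over all genes depended on the fit, which applies to each list below. With all libraries 1332 genes were higher and 1239 lower. Without DHEA replicates 1 and 2, 1081 were higher and 1054 lower, or 7.89% of 27062. With single libraries left out, 904 to 1776 were higher and 882 to 1891 lower. The lowest numbers came without sesame oil replicate 1 and the highest without DHEA replicate 3. The groups did not overlap in 0 of the 6, beside 5.04% of all genes (2.42% with every DHEA library above and 2.62% with every DHEA library below). With the criteria of the study, p under 0.05 without adjustment and at least a 2-fold change, 1.6% of all genes and 0 of the 6 were called. The median log2 fold change of the 6 genes was 0.15, beside 0.01 for all genes tested, and 0.05 without DHEA replicates 1 and 2, beside -0.0033 for all genes in that fit. In bulk tissue, a lower share of a cell type and a lower level per cell cannot be told apart, and this holds for each difference below.

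**Figure D2:**
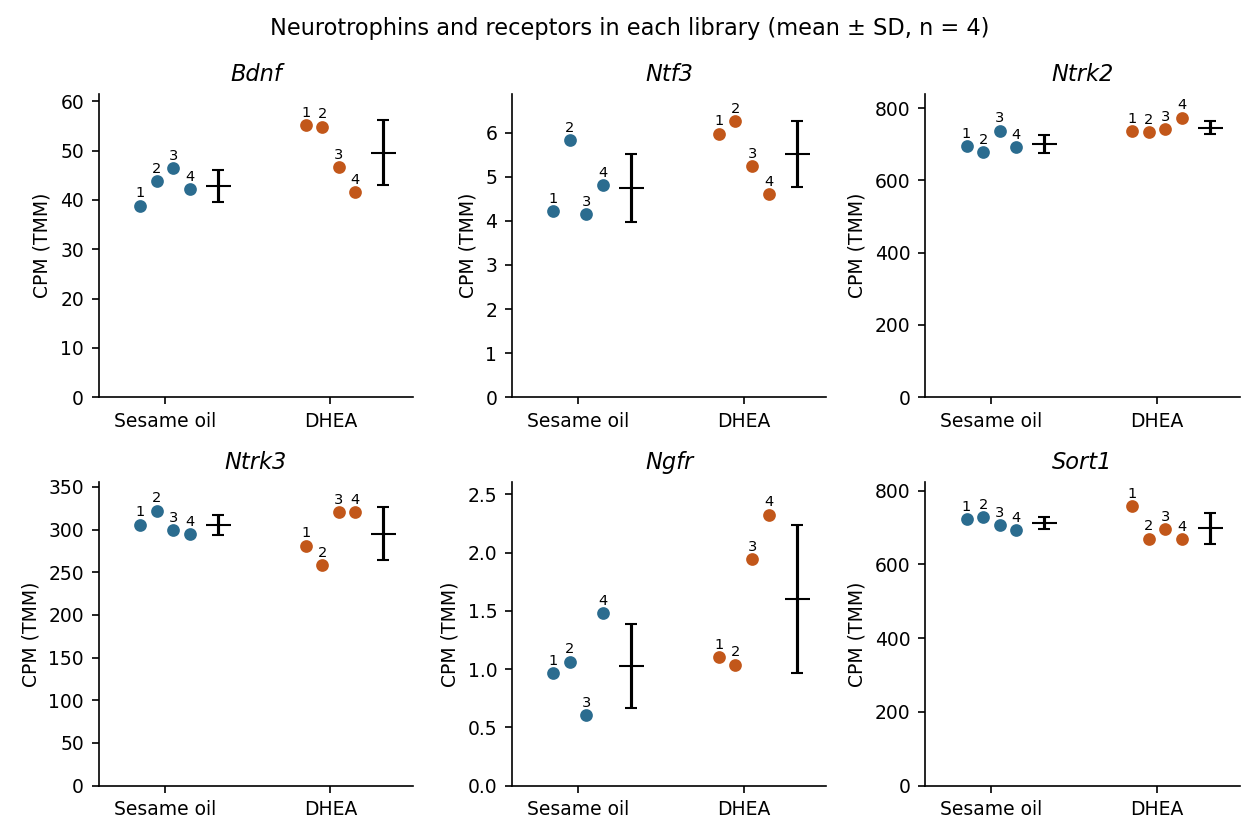
CPM after TMM scaling of the 6 genes in each library. Points are libraries with their replicate number, and bars show the mean ± SD of 4 libraries. In every panel the groups overlap, and DHEA replicates 1 and 2 lie above the other 6 libraries for Bdnf and below them for Ntrk3.

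Bdnf, which encodes the ligand of TrkB, was the member with the smallest p. Its level was 55.2, 54.8, 46.7 and 41.6 CPM in DHEA replicates 1 to 4 and 38.9, 43.8, 46.5 and 42.2 CPM in sesame oil replicates 1 to 4. DHEA replicates 1 and 2 were well above all other libraries, DHEA replicate 3 lay just above the highest sesame oil library, and DHEA replicate 4 was lower than 3 of the 4 sesame oil libraries. The means were 49.6 ± 6.59 CPM (SD, n = 4) and 42.8 ± 3.19 CPM (SD, n = 4). The log2 fold change was 0.21 (standard error 0.09, 95% interval 0.02 to 0.40), with an unadjusted p of 0.0304 and an adjusted p of 0.487 by the edgeR fit. By the two-sided exact permutation test the means did not separate beyond the replicate spread (p = 0.171). Without DHEA replicates 1 and 2, which stood apart over all genes, the log2 fold change was 0.04 (standard error 0.08, edgeR adjusted p = 0.906). The libraries also differed in how their levels ran with GC content. The Spearman correlation across genes between GC content and a library's deviation from the mean of all libraries was -0.16 to -0.01 with DHEA and 0.07 to 0.18 with sesame oil, without overlap. With this trend taken out the log2 fold change of Bdnf was 0.15, with an unadjusted p of 0.105 in the edgeR test.

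The Bdnf gene is transcribed from several starts, and the counts add the reads of all of them. The RefSeq promoter table (GRCm38.p6) holds 7 starts of Bdnf, 2 of Ntf3 and 1 each of Ntrk2 and Ngfr. The 250 bases before each start were searched on both strands for the CRE, the site of the activity-dependent factor CREB (TGACGTCA), its half-site (TGACG, which is also part of the CRE), the androgen response element and its half-site (AGAACA, which is part of the full element and is shared with other steroid receptors). Among the 32851 windows of the whole table, 1.55% held the CRE, 17.8% its half-site, 0.00913% the full androgen response element and 16.1% its half-site. In the 7 Bdnf windows the letters of the CRE half-site occurred in 1 and those of the androgen half-site in 3, and neither full element occurred. The windows of Ntf3, Ntrk2 and Ngfr held none of the 4 motifs. The 4 Bdnf windows with a match are shown because Bdnf had the smallest p of the group and its promoters are well known for activity-dependent use, with the half-sites in capitals. A match is only a match of letters.
Bdnf window 1, chr2:109674450-109674699, plus strand: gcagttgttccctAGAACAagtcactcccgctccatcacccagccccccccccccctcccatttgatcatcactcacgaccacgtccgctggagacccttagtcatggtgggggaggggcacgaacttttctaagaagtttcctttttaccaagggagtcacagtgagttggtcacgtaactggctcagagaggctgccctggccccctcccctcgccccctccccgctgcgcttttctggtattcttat
Bdnf window 2, chr2:109676782-109677031, plus strand: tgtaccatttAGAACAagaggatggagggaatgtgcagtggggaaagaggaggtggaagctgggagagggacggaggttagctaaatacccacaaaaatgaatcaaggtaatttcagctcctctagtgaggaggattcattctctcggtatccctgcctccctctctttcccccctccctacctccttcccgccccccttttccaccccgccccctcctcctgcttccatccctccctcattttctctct
Bdnf window 3, chr2:109692186-109692435, plus strand: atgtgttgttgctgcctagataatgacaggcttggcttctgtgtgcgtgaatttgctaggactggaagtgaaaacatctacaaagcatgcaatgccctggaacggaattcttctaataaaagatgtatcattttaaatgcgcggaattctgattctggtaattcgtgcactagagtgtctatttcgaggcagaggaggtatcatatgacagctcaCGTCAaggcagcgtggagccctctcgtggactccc
Bdnf window 6, chr2:109709133-109709382, plus strand: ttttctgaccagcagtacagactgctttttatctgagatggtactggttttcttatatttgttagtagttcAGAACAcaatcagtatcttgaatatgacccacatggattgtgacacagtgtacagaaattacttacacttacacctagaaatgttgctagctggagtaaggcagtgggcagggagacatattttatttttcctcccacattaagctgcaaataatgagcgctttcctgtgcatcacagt

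Ntf3, the NT-3 ligand, was less abundant than Bdnf per length. It had 5.98, 6.25, 5.24 and 4.60 CPM in DHEA replicates 1 to 4 and 4.23, 5.83, 4.16 and 4.80 CPM in sesame oil replicates 1 to 4. DHEA replicates 1 and 2 were again the highest, followed by sesame oil replicate 2, and the groups overlapped. The log2 fold change of 0.21 (standard error 0.17, 95% interval -0.13 to 0.56) was as large as that of Bdnf but had an adjusted p of 0.666 by the edgeR fit. Without DHEA replicates 1 and 2 it was 0.04 (standard error 0.19). Over the 8 libraries the log2 CPM of the 2 ligands had a Pearson's r of 0.735 and a Spearman's rho of 0.690, and Pearson's r was 0.306 without DHEA replicates 1 and 2. These points share library and depth, and the values are given as a description. The number of Bdnf counts for each Ntf3 count was 8.77 to 9.23 in the DHEA libraries and 7.51 to 11.2 in the sesame oil libraries.

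Ntrk2, which encodes TrkB, is the receptor through which mature BDNF acts. It had 737, 734, 741 and 773 CPM in DHEA replicates 1 to 4 and 694, 678, 737 and 692 CPM in sesame oil replicates 1 to 4. Only sesame oil replicate 3 reached the range of the libraries labelled DHEA. The mean of 746 ± 18.3 CPM (SD, n = 4) compared with 700.3 ± 25.7 CPM (SD, n = 4), a log2 fold change of 0.09 (standard error 0.06, 95% interval -0.03 to 0.21, edgeR adjusted p = 0.643). An exact permutation test (two-sided) returned p = 0.0857, where the smallest p of 4 against 4 is 0.0286. Without DHEA replicates 1 and 2 the log2 fold change was 0.11 with an unadjusted p of 0.0514 in the edgeR test. Markers of astrocytes, which carry truncated TrkB, lay in the same direction. All 10 had a log2 fold change above 0, and 7 of them an unadjusted p under 0.05, beside 4.82% of all genes in that direction. Among genes whose mean count reached 100, 15.7% passed, both directions together. The 7 became 5 without DHEA replicates 1 and 2 (9 of 10 above 0), and 5 with DESeq2 or with the GC trend removed. When single libraries were left out it was 2 without sesame oil replicate 1, 3 without sesame oil replicate 2, 4 without DHEA replicate 2 and 5 to 8 otherwise. Their summed level was 6232, 7421, 6637 and 6585 CPM in DHEA replicates 1 to 4 and 5486, 5826, 6108 and 6320 CPM in sesame oil replicates 1 to 4, with Slc1a2, the astrocytic glutamate transporter, the most abundant at 3936 CPM. Their part in the level of Ntrk2 was not tested.

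Ntrk3, which encodes TrkC, did not follow Ntrk2. Its level was 281 and 258 CPM in DHEA replicates 1 and 2 and 320.5 and 320.6 CPM in DHEA replicates 3 and 4. In sesame oil replicates 1 to 4 it was 306, 322, 299.5 and 294 CPM. DHEA replicates 1 and 2 were thus the 2 lowest of the 8 libraries, and the other 2 were near the top of the sesame oil range. The log2 fold change was -0.05 (standard error 0.07, 95% interval -0.20 to 0.10, edgeR adjusted p = 0.808), and 0.06 without DHEA replicates 1 and 2. The number of Ntrk2 counts for each Ntrk3 count was 2.62, 2.84, 2.31 and 2.41 in DHEA replicates 1 to 4 and 2.27, 2.11, 2.46 and 2.35 in sesame oil replicates 1 to 4. The 2 highest ratios belonged to DHEA replicates 1 and 2. Pearson's r between Bdnf and Ntrk3 was -0.719 over the 8 libraries and 0.147 without these 2.

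**Figure D3:**
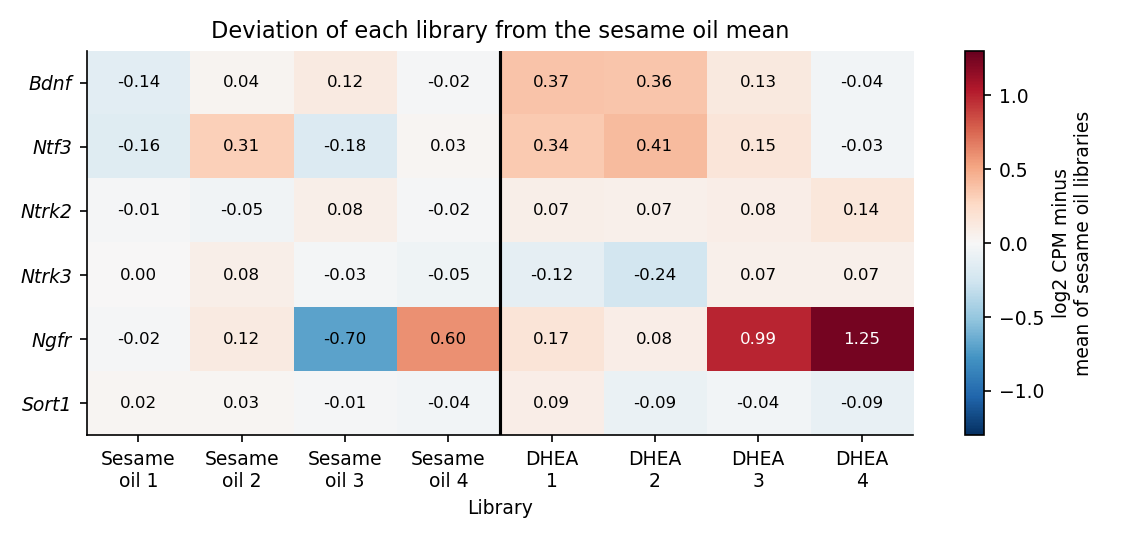
Log2 CPM of each gene in each library minus the mean of the 4 sesame oil libraries. Red is higher and blue lower. In DHEA replicates 1 and 2 Bdnf and Ntf3 are up to 0.41 higher and Ntrk3 up to 0.24 lower, while in DHEA replicates 3 and 4 the largest values belong to Ngfr, at 0.99 and 1.25.

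Ngfr, which encodes p75, had the largest difference of the group and the lowest counts. It had 41, 37, 70 and 85 counts in DHEA replicates 1 to 4, or 1.10, 1.04, 1.94 and 2.33 CPM. In sesame oil replicates 1 to 4 it had 32, 38, 19 and 50 counts, or 0.966, 1.07, 0.603 and 1.48 CPM. DHEA replicates 3 and 4 were above all sesame oil libraries, and DHEA replicates 1 and 2 lay within their range. The means of 1.60 ± 0.634 CPM (SD, n = 4) and 1.03 ± 0.362 CPM (SD, n = 4) gave a 1.55-fold difference (95% interval 0.943 to 2.55). The log2 fold change was 0.63 (standard error 0.34), with an unadjusted p of 0.0801 and an adjusted p of 0.585 by the edgeR fit, and an exact permutation test (two-sided) returned p = 0.171. Without DHEA replicates 1 and 2 it was 1.04 (standard error 0.34), with an unadjusted p of 0.00860 and an adjusted p of 0.482 by the edgeR fit, in which 7.89% of all genes had an unadjusted p under 0.05. Single libraries also moved it, to 0.40 without DHEA replicate 4 and 0.86 without sesame oil replicate 4. The coefficient of variation within a group was 39.6% and 35.1%, beside 14.7% that counting alone gives at its mean of 46.5 counts. Cholinergic neurons of the septum, which lies beside the hippocampus, are rich in p75. Of the 7 septal cholinergic markers, 0 had an unadjusted p under 0.05, beside 9.31% of all genes. Their median log2 fold change of 0.13 was 0.41 without DHEA replicates 1 and 2 and ran from -0.24 (without DHEA replicate 3) to 1.14 (without sesame oil replicate 4, where all 7 were above 0 and 1 passed). Of the other single libraries left out, 1 was higher without DHEA replicate 1 and 1 lower without DHEA replicate 4. Chat, which encodes the enzyme of acetylcholine synthesis, had 0 to 9 counts and the transcription factor gene Lhx8 0 to 3 counts in any library. Isl1, another transcription factor gene, had 1, 39, 42 and 6 counts in DHEA replicates 1 to 4 and 1, 1, 2 and 25 counts in sesame oil replicates 1 to 4. Slc5a7, the choline transporter gene, was 0.931 to 1.16 CPM with DHEA and 0.561 to 0.920 CPM with sesame oil, without overlap (log2 fold change 0.50, standard error 0.32). Of the 7 septal markers, 1 had every DHEA library above every sesame oil library, beside 2.42% of all genes. The opposite held for 0 of them, beside 2.62% of all genes. Isl1 and Slc5a7 were the only 2 of these markers that averaged 10 counts or more. With all libraries the median log2 fold change of this pair was 0.99, that of Isl1 being 1.48 (standard error 0.92). The summed level of the 7 septal markers was 1.21, 2.33, 2.64 and 1.42 CPM in DHEA replicates 1 to 4. It was 0.755, 0.673, 1.11 and 2.46 CPM in sesame oil replicates 1 to 4. Slc5a7 was the most abundant of the list by its mean (0.869 CPM), but Isl1 exceeded it in DHEA replicates 2 and 3. Their part in the level of Ngfr was not tested. Chat, Lhx8 and Isl1 were chosen after their values were seen.

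Sort1, which encodes the sorting receptor that binds pro-neurotrophins with p75, was the most abundant member per length. It had 757, 669.8, 695 and 668 CPM in DHEA replicates 1 to 4 and 723, 727, 707 and 693 CPM in sesame oil replicates 1 to 4. The libraries labelled DHEA held both the highest value and the 2 lowest. The log2 fold change was -0.03 (standard error 0.06, edgeR adjusted p = 0.877), and its 95% interval of -0.16 to 0.10 corresponds to 0.896-fold to 1.07-fold. Without DHEA replicates 1 and 2 it was -0.07 (standard error 0.05). The SD was 41.7 CPM with DHEA and 15.8 CPM with sesame oil (n = 4 each). Antisense genes overlap Sort1 (Gm12523) and Bdnf (Gm45346) in GENCODE vM21, and since the strand setting of the counting is not stated, reads of these partners cannot be told apart from those of the 2 genes.

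**Figure D4:**
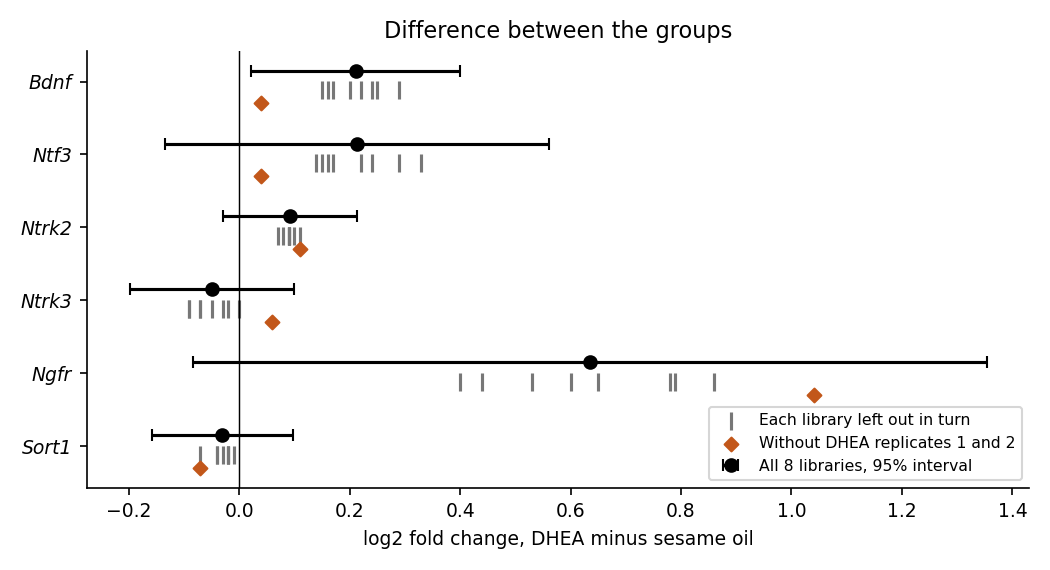
Log2 fold change of each gene between the libraries labelled DHEA and sesame oil. Black points and bars are the fit of all 8 libraries with its 95% interval, grey ticks the fits that each left out 1 library, and diamonds the fit without DHEA replicates 1 and 2. The diamonds of Bdnf and Ntf3 lie at 0.04, that of Ntrk3 at 0.06 and that of Ngfr at 1.04.

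The genes whose pattern over the 8 libraries was most like that of a member were sought among those whose mean count reached 100, by Pearson's r of log2(CPM + 0.5). The nearest to Bdnf were Oxct1, an enzyme of ketone body use (r = 0.979), Kif5c, a neuronal kinesin (r = 0.976), and Nudt11 (r = 0.976). Ntf3 was closest to the zinc finger genes Zfp719 (r = 0.975) and Zfp273 (r = 0.971) and to the small GTPase gene Rap2b (r = 0.954). Ntrk2 was closest to Zbtb44 (r = 0.974), the integrin gene Itgav (r = 0.966) and Nfkbia, the inhibitor of NF-kappa-B (r = 0.963). The nearest genes to Ntrk3 were Ccdc191 (r = 0.991), the kinesin gene Kif9 (r = 0.983) and Vars2, a mitochondrial tRNA synthetase (r = 0.976). Ngfr was closest to Hapln2, a matrix link protein gene of oligodendrocytes (r = 0.987), Dclre1b (r = 0.975) and Ufl1 (r = 0.960). Sort1 was closest to Ap2b1, a subunit of the clathrin adaptor AP-2 (r = 0.986), Wdr7 (r = 0.978) and Lrrn2 (r = 0.948). These were the highest of 12779 values (12780 for Ngfr), and all points share library and depth. Of these 18 genes, Itgav had the smallest p, with a log2 fold change of 0.27 and an adjusted p of 0.245 by the edgeR fit.

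Of the 7 genes on the list of other ligands and receptors of the family, 0 had an unadjusted p under 0.05, beside 9.31% of all genes, and their median log2 fold change was -0.10. With DHEA replicates 1 and 2 left out it was also 0, with a median of -0.12, and 1 was lower without DHEA replicate 3 or without DHEA replicate 4. Sorl1 and Sorcs2, both sortilin relatives, were the most abundant, with log2 fold changes of -0.07 (standard error 0.06) and -0.10 (standard error 0.08).

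Of the 19 genes that process and release the precursors, 17 were tested and 1 of these had an unadjusted p under 0.05, beside 9.31% of all genes. It was Hap1, a partner of huntingtin in the transport of BDNF vesicles, at 135 CPM with DHEA and 159.8 CPM with sesame oil (log2 fold change -0.25, standard error 0.09, edgeR adjusted p = 0.377). The most abundant members were Cpe, carboxypeptidase E, with a mean of 2425 against 2262 CPM and a log2 fold change of 0.10 (standard error 0.06), and the convertase gene Pcsk2, with 272 against 270.5 CPM and a log2 fold change of 0.01 (standard error 0.06). The median log2 fold change of the 17 genes was -0.01. In the fit without DHEA replicates 1 and 2, 1 was higher and 1 lower, and without sesame oil replicate 2 none passed, Hap1 included. It was 1 higher and 2 lower without DHEA replicate 3, and 1 in each direction without DHEA replicate 4 or sesame oil replicate 3.

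The signalling genes below the receptors were counted by list, each beside the share of all genes. Among 41 Trk adaptors and kinases, 2 had an unadjusted p under 0.05 and were higher in the libraries labelled DHEA, beside 4.82% of all genes in that direction. With DHEA replicates 1 and 2 left out it was 0 higher and 2 lower, and the median log2 fold change went from 0.04 to -0.02. DESeq2 gave 0 higher and 1 lower, and RLE normalization or removal of the GC trend gave 1 higher and 0 lower. Without DHEA replicate 2 or any one of sesame oil replicates 1 to 3, 0 passed. It was 3 higher without DHEA replicate 4 or sesame oil replicate 4, 3 higher and 1 lower without DHEA replicate 3, and 1 higher without DHEA replicate 1. The 2 genes were Nras, with a log2 fold change of 0.18 (standard error 0.08), and the phosphatase gene Ptpn11, with 0.14 (standard error 0.06). Both had adjusted p-values above 0.05 by the edgeR fit (0.496 and 0.521). Kidins220, a Trk scaffold, was among the most abundant and had a log2 fold change of -0.04 (standard error 0.06). Of 16 partners of p75, 1 had an unadjusted p under 0.05, beside 9.31% of all genes. It was the Nogo receptor gene Rtn4r, lower in the libraries labelled DHEA by a log2 fold change of -0.19 (standard error 0.08, edgeR adjusted p = 0.503). Rtn4, which encodes Nogo, and Maged1, a p75 adaptor, were the most abundant of this list, with log2 fold changes of 0.12 and -0.09. When DHEA replicates 1 and 2 were left out, 3 partners were lower, beside 1054 of all 27062 genes in that fit. The median went from -0.04 to -0.10. Of the 16 partners, 0 passed without DHEA replicate 2 or without sesame oil replicate 1, 3 or 4. It was 2 lower without DHEA replicate 1, 1 higher and 1 lower without DHEA replicate 3, and 1 higher and 2 lower without DHEA replicate 4. Among 18 regulators of Bdnf transcription, 2 had an unadjusted p under 0.05, and both were lower, beside 4.49% of all genes in that direction. It was 1 without DHEA replicates 1 and 2, and 0 without DHEA replicate 1, DHEA replicate 2 or sesame oil replicate 2 alone. Without DHEA replicate 4 it was 3 lower, without sesame oil replicate 3 it was 1 higher and 2 lower, and without sesame oil replicate 4 it was 1 in each direction. Crebbp, the CREB-binding coactivator, had a log2 fold change of -0.19 (standard error 0.08) and Npas4, an activity-induced factor, one of -0.51 (standard error 0.23). Npas4 is also on the list of genes induced by BDNF and TrkB signalling below, and is counted in both. Camk2a and Mef2a, the most abundant regulators, had log2 fold changes of 0.02 and 0.10.

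The list of genes known to be induced by BDNF and TrkB signalling, which neuronal activity also induces, had the largest share of low p-values in the pathway when all 8 libraries were used, but not without DHEA replicates 1 and 2. Of its 23 genes, 8 had an unadjusted p under 0.05, and all 8 were lower in the libraries labelled DHEA, beside 4.49% of all genes in that direction. The median log2 fold change was -0.21, 19 of the 23 were below 0, and 0 had an adjusted p under 0.05. The genes of the list all had mean counts above 100. At that level 15.7% of genes had an unadjusted p under 0.05, both directions together. Egr1, an immediate early transcription factor, was 96.2, 105, 153 and 138 CPM in DHEA replicates 1 to 4 and 187, 130.5, 229 and 152 CPM in sesame oil replicates 1 to 4. The 2 lowest values were again those of DHEA replicates 1 and 2, in which Bdnf was highest. Its log2 fold change was -0.50 (standard error 0.15, edgeR adjusted p = 0.293). Dusp6, a phosphatase gene that growth factor signalling induces, was 54.6, 52.1, 55.0 and 57.2 CPM in the DHEA libraries and 75.8, 59.9, 66.7 and 59.4 CPM in the sesame oil libraries. The groups did not overlap (exact permutation test, two-sided, p = 0.0286, the smallest that 4 against 4 allow). Of the 23 genes, 1 had every DHEA library below every sesame oil library, beside 2.62% of all genes. The opposite held for 0 of them, beside 2.42% of all genes. The log2 fold change of Dusp6 was -0.26 (standard error 0.08, edgeR adjusted p = 0.297). The neuropeptide precursor gene Vgf had a log2 fold change of -0.32 (standard error 0.10, edgeR adjusted p = 0.299). The most abundant genes of the list, Spred1 and Homer1, had log2 fold changes of 0.10 and -0.10, and neither passed. Without DHEA replicates 1 and 2, 3 genes of the list were lower and 1 was higher at an unadjusted p under 0.05, and the median was -0.07. When single libraries were left out, the number lower was 3 (without DHEA replicate 1) to 12 (without DHEA replicate 4), and it was 4 without sesame oil replicate 1 or 3. The number lower over all genes moved too. It was 887 of 27391 without DHEA replicate 1 and 1670 of 27288 without DHEA replicate 4. Without sesame oil replicate 1 it was 882 of 27339, and without sesame oil replicate 3 it was 1088 of 27341. DESeq2 gave 3. The summed CPM of the list was 1298 ± 86.5 (SD, n = 4) and 1483 ± 223 (SD, n = 4), with overlap.

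Markers of glia were among the genes with a low unadjusted p, which 4.82% of all genes had in the higher and 4.49% in the lower direction. Among genes whose mean count reached 100 it was 15.7%, both directions together. All 10 oligodendrocyte markers had an unadjusted p under 0.05 and were higher in the libraries labelled DHEA, with a median log2 fold change of 0.39. This held for 7 of them without DHEA replicates 1 and 2 and for 8 to 10 when single libraries were left out. Their summed level was 6831, 8620, 6754 and 7082 CPM in DHEA replicates 1 to 4 and 5466, 5434, 4606 and 6546 CPM in sesame oil replicates 1 to 4. The groups did not overlap (exact permutation test, two-sided, p = 0.0286), and Mbp, the myelin basic protein gene, was the most abundant at 2804 CPM. After adjustment 0 of these genes passed in the edgeR test. Of the 8 microglial markers, 4 were higher at an unadjusted p under 0.05, but 2 without DHEA replicate 2 and 0 without DHEA replicates 1 and 2, where the median log2 fold change went from 0.18 to 0.06. Of the 6 precursor markers, led by Olig1 at 85.0 CPM, 3 were higher, and 1 without DHEA replicates 1 and 2. Each of DHEA replicate 2 and sesame oil replicates 1 and 3, when left out alone, reduced the 3 precursor markers to 2. Of the 7 endothelial markers, led by Flt1 at 90.6 CPM, 3 were higher, with a median log2 fold change of 0.20. The endothelial list without DHEA replicates 1 and 2 had 2 higher and 1 lower, with a median of -0.05. Of the 10 mural and meningeal markers, led by Igf2 at 220.5 CPM, 1 was higher, while without DHEA replicates 1 and 2 it was 0 higher and 3 lower. That list had 1 higher and 2 lower without DHEA replicate 1 and 2 higher without DHEA replicate 3. Of the 6 CA2 markers, in whose cells NT-3 is known, 0 passed in either direction, and 1 in each without DHEA replicates 1 and 2 or DHEA replicate 2 alone, and 1 higher without sesame oil replicate 2 or 4. The 8 dentate gyrus markers had 1 higher and 1 lower with and without these libraries, and 0 higher and 1 lower without DHEA replicate 2 alone. The 8 markers of CA1 and CA3, led by Mpped1 at 189 CPM, had 1 higher, and without them 1 lower. That count was 2 higher without DHEA replicate 3 or 4, 1 in each direction without DHEA replicate 1, 0 without DHEA replicate 2 or sesame oil replicate 3, and 1 lower without sesame oil replicate 1. The 7 markers of the thalamus, led by Rora at 58.4 CPM, had 1 higher in both fits, 3 without DHEA replicate 1, 2 without DHEA replicate 3, and 0 with DESeq2, with the GC trend removed or without DHEA replicate 4 or sesame oil replicate 1 or 2. The neuron list had 1 of 10 lower, and 3 lower without DHEA replicates 1 and 2. It had 2 higher and 1 lower without DHEA replicate 4. The part of these cell types in the levels of the neurotrophin genes was not tested.

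**Figure D5:**
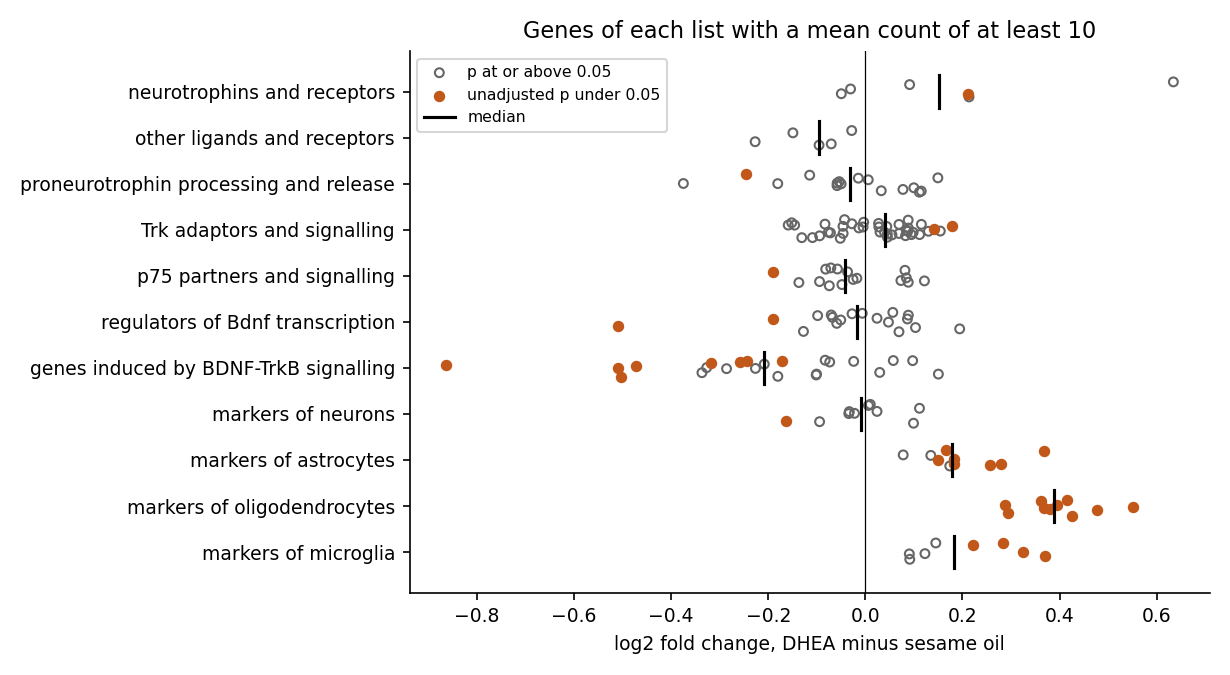
Log2 fold change, DHEA minus sesame oil, of each gene whose mean count reached 10, by list. Filled points have an unadjusted p under 0.05 and black lines are medians. The 6 neurotrophin and receptor genes spread around a median of 0.15, the BDNF-induced genes around -0.21 and the oligodendrocyte markers around 0.39.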

How the data were processed

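The 8 libraries were grouped by the deposited treatment label, 4 labelled DHEA and 4 labelled sesame oil, and replicates were numbered in accession order, which pairs no libraries. The labels give no batch. Replicate 4 of each group carries a sample number set apart from those of the other libraries, and the reason is not stated. The authors deposited unnormalized read counts for each gene. They had dropped poor reads, mapped the rest with HISAT2 and used HTSeq-count. The submitters' processing notes name GRCm39 and fastp. Versions and the annotation are not given in the sources used here. The FPKM values that the authors deposited were used for levels per length.

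Counts were normalized by TMM and tested with the quasi-likelihood test of edgeR 4.0.16 (R 4.3.3) on the 27612 genes counted in any library (prior count 0.125). Genes were called at a Benjamini-Hochberg adjusted p under 0.05. The standard error was the log2 fold change divided by the square root of F, and the 95% interval used the degrees of freedom of the fit. For single values, all 70 allocations entered an exact permutation test (two-sided), in Python 3.11.15 with scipy 1.17.1. No pair within a group agreed within sampling noise. The labels do not say which animal a library came from, so p-values measure the spread between these libraries. At these depths 3 counts are at most 0.0953 CPM, which covers counting error only. Genes of the table were matched to RefSeq and GENCODE by symbol, and no coordinate of the counts was used. Promoter windows were found for 4 of the 6 genes.

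The named genes were the 6 members, and of each pathway list those with an unadjusted p under 0.05 (at most 3 per direction) and the 2 most abundant, the most abundant gene of each marker list and the 3 genes most like each member. A few genes that this rule names are not reported here. The members and lists were chosen with earlier results of these data known. The alternatives were DESeq2 1.42.0, RLE and upper-quartile normalization, at least 10 counts, filterByExpr, a prior count of 1, robust moderation, leaving out mitochondrial genes, thinning to the smallest total, limma-trend (limma 3.58.1) on log2(FPKM + 1) and log2(FPKM + 0.1), removal of the GC trend (lowess, span 0.3, GC content known for 92.75% of the genes whose mean count reached 10), and leaving out each library. A fit without DHEA replicates 1 and 2 was added after the data were seen. The scripts were tested on simulated data.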

Additional observations from a re-analysis of the deposited data

Results flagged for a closer look

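A library stood apart from the other 3 of its group, by a gap to the nearest library that passed Dixon's 95% value for 4 samples, in 3 of 142 groups examined, where chance gives about 7.1. Homer1, a scaffold gene of the synapse, was 183 CPM in DHEA replicate 1 and 160.1 to 161.7 CPM in the other libraries labelled DHEA (0.93 of the range). Itgav, an integrin gene whose pattern was among the nearest to that of Ntrk2, was 79.8 CPM in DHEA replicate 4 and 70.04 to 70.96 CPM in the other libraries labelled DHEA (0.905). In sesame oil replicate 3 Itgav was 66.0 CPM, beside 58.6 to 58.8 CPM in the others of that group (0.979). None of the 6 neurotrophin and receptor genes had such a library.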

How the results depend on the processing

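With 12 alternative settings that kept all libraries, the 6 log2 fold changes kept their sign and none of the 6 genes had an adjusted p under 0.05 (DESeq2 gave no adjusted p for Ngfr). They ranged from 0.15 to 0.21 for Bdnf, 0.13 to 0.22 for Ntf3, 0.06 to 0.09 for Ntrk2, -0.09 to -0.05 for Ntrk3, 0.16 to 0.67 for Ngfr and -0.06 to -0.03 for Sort1. The lowest value of Ngfr came from log2(FPKM + 1), where the added 1 shrinks the change of a low gene. The unadjusted p of Bdnf was under 0.05 in 6 of the 12 and in 4 of 8 when single libraries were left out, and ranged from 0.00294 to 0.108 in the latter (edgeR's quasi-likelihood test). That of Ngfr was under 0.05 in 0 of the 12 and in 3 of 8, without DHEA replicate 1, DHEA replicate 2 or sesame oil replicate 4. Bdnf lost it without DHEA replicate 1 or 2 or sesame oil replicate 1 or 4. With each library left out, the log2 fold change ran from 0.15 to 0.29 for Bdnf, 0.14 to 0.33 for Ntf3, 0.07 to 0.11 for Ntrk2, -0.09 to 0.00 for Ntrk3, 0.40 to 0.86 for Ngfr and -0.07 to -0.01 for Sort1. That of Ntrk3 turned to 0.00 without DHEA replicate 2 and to 0.06 without DHEA replicates 1 and 2.

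Genes called after adjustment at 0.05 numbered 0 in the edgeR fit (9.31% of 27612 unadjusted), 153 with DESeq2, 4 with robust moderation, 1 without DHEA replicates 1 and 2, and 0 to 93 with each library left out, with 93 without DHEA replicate 3, 12 without DHEA replicate 4 and at most 2 without any other. The number meeting the study's thresholds was 442, and 164 with DESeq2, 284 with at least 10 counts, 62 with filterByExpr, and 1 and 48 with limma-trend (FPKM plus 1, FPKM plus 0.1). Filters test fewer genes, and for DESeq2 the cause was not tested. Of 119 distinct pathway genes tested, 13 had an unadjusted p under 0.05 (10.9%, beside 9.31% of all genes and 15.7% of those whose mean count reached 100), 8 with DESeq2 and with robust moderation, and 6 to 23 with each library left out, with 23 without DHEA replicate 4, 8 without sesame oil replicate 3, 7 without DHEA replicate 1 and 6 without DHEA replicate 2 or sesame oil replicate 1. The shares of all genes given beside these counts are those of the fit with all libraries. The count over all genes also rose without DHEA replicate 4 and fell in the other leave-one-out fits named for the pathway genes. No paired analysis was possible because the labels give no shared replicate numbers. Depth limits what can be said of the septal markers Chat and Lhx8.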

Other observations

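The 7 choroid plexus markers, led by Ttr, the transthyretin gene, at a mean of 2109 CPM, differed far more between libraries than any neurotrophin gene. Their summed level was 4530, 96.7, 2230 and 4188 CPM in DHEA replicates 1 to 4 and 3158, 2056, 2291 and 516 CPM in sesame oil replicates 1 to 4, and 0 of the 7 passed 0.05 unadjusted in the edgeR fit, beside 9.31% of all genes (4.82% higher). Without DHEA replicate 2 all 7 were higher at that threshold, with a median log2 fold change of 0.85 in place of 0.47, and without DHEA replicates 1 and 2 it was 1 of 7. DHEA replicate 2, which held the least, was also the library farthest out on the first principal component. The choroid plexus level did not follow that component, however. DHEA replicate 1, the next farthest out at 21.8, held the most, and sesame oil replicate 4, with 516 CPM, lay at -3.62. The share of counts on mitochondrially encoded genes was 7.29% to 9.34% with DHEA and 6.37% to 7.23% with sesame oil, with the highest share in DHEA replicate 2.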
